A study of Mus musculus with 12 samples.

Results

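The enzymes of glycolysis and of the citric acid cycle were followed with age in the ventral tegmental area (VTA) of the midbrain, where dopaminergic neurons lie among other neurons and glia. The members were 36 genes listed by symbol, from the hexokinases to fumarase, and every probe set named for exactly 1 of them was taken. This rule gave 81 of the 45101 probe sets of the array. They stood for 34 genes, and 77 of them were tested. The other 4 are control probe sets of Pcx and are described separately. No probe set was named for Gpi1 or Eno1 alone, and these genes were not analysed here. There were 23 members with more than 1 probe set and 11 with 1.

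The mice were wild type C57BL/6 animals (C57 in the labels), with no transgene or treatment named in the labels, aged 2 months (young), 10 months or 18 months (late middle-aged). There were 4 Affymetrix arrays per age, and each held RNA pooled from 5 mice, so that no value belongs to a single animal. Young arrays 3 and 4 had a correlation of 0.998, against 0.967 to 0.996 in the 17 other pairs of the same age, and were counted as 1 sample (n = 3, 4 and 4). All levels are log2 expression values, in which higher values mean more signal. A probe set was called where limma gave an adjusted p under 0.05 and a change over 1.3-fold, and "rose" and "fell" are used only of called probe sets.

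Glycolysis splits glucose into pyruvate in the cytosol and yields ATP and NADH. In mitochondria the pyruvate dehydrogenase complex turns pyruvate into acetyl-CoA, which the citric acid cycle oxidises to feed the respiratory chain. In brain, where glucose is the main fuel, astrocytes are known for their glycolysis and release of lactate, and neurons for their oxidative metabolism.

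Some measures of the whole series touch these enzymes. All 10 markers of dopaminergic neurons were measured, from Slc6a3 (14.03 over all samples) down to En1 (7.13), with Th at 13.6. Of the variance 43.8% lay on the first principal component, and 4 arrays were on one side of it: young array 2, array 3 of the 10 months samples, and arrays 2 and 4 of the late middle-aged samples. The log2 difference between 3′ and 5′ control probe sets of Actb and Gapdh, which shows how far from the 3′ end the label reached, averaged 3.47 in the young samples (SD 0.17, n = 3), 2.15 (SD 0.34, n = 4) at 10 months, then 1.98 (SD 0.24, n = 4). The young arrays lay above every later array (two-sided exact permutation p = 0.0286 against either age, the minimum here, and adjusted p = 0.12 over 21 tests). With this difference as a covariate, neither a member nor any other probe set was called. Its part in the results was not tested beyond that fit. In tissue RNA, moreover, more cells of a type and more RNA per cell cannot be told apart.

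At 18 against 2 months, enzymes of glycolysis, lactate formation, pyruvate oxidation and the citric acid cycle were among the genes that rose. Of the 77 probe sets 20 rose and 1 fell, together 27.3%, where 7.46% of all 45037 tested probe sets were called. By direction, 4.55% of all probe sets rose and 2.91% fell. With the brightest probe set standing for each gene, 12 of 34 members rose (35.3%) and 0 fell, against 8.82% of 18193 genes called and 5.76% that rose. These were Pfkl, Pfkm, Pfkp, Tpi1, Pgam1, Pkm, Ldha, Pdha1, Dld, Idh3a, Ogdh and Suclg2. Counting any called probe set, Aldoa, Cs, Aco1 and Idh2 are added, which makes 16 genes.

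The median log2 change of the 77 probe sets was 0.25, beside −0.06 over all tested probe sets. A change above 0 was found in 56 of 77, against 40.4% of all. The 3 young and 4 late middle-aged samples did not overlap in 22 probe sets that were higher and 2 that were lower, where 10.4% and 13.1% of all probe sets had such gaps. Most members are abundant: 57 of the 77 lay in the upper quartile of mean level (8.35 or more). Among these 57, 19 rose and 0 fell (33.3%), while 14.4% of all probe sets in that quartile were called, and the median change was 0.30 beside 0.09.

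These counts depend on single arrays. The number of called members was 3 without young array 1 and 10 without young array 2, and 12 and 10 without 18 months array 2 and array 4. Of all probe sets 0.939%, 3.7%, 4.32% and 4.33% were called in these fits, in the same order, beside 7.46% in the main fit. Without the 4 arrays on one side of the first component 11 member probe sets (14.3%) were called, with 5 genes in place of 12. The share over all probe sets was then 7.57%. The 12 genes became 1 without young array 1, 6 without young array 2, 7, 6, 6 and 4 without 18 months arrays 1, 2, 3 and 4. Calls over all probe sets fell in these fits too, to 4.69% and 4.3% without 18 months arrays 1 and 3.

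**Figure D1:**
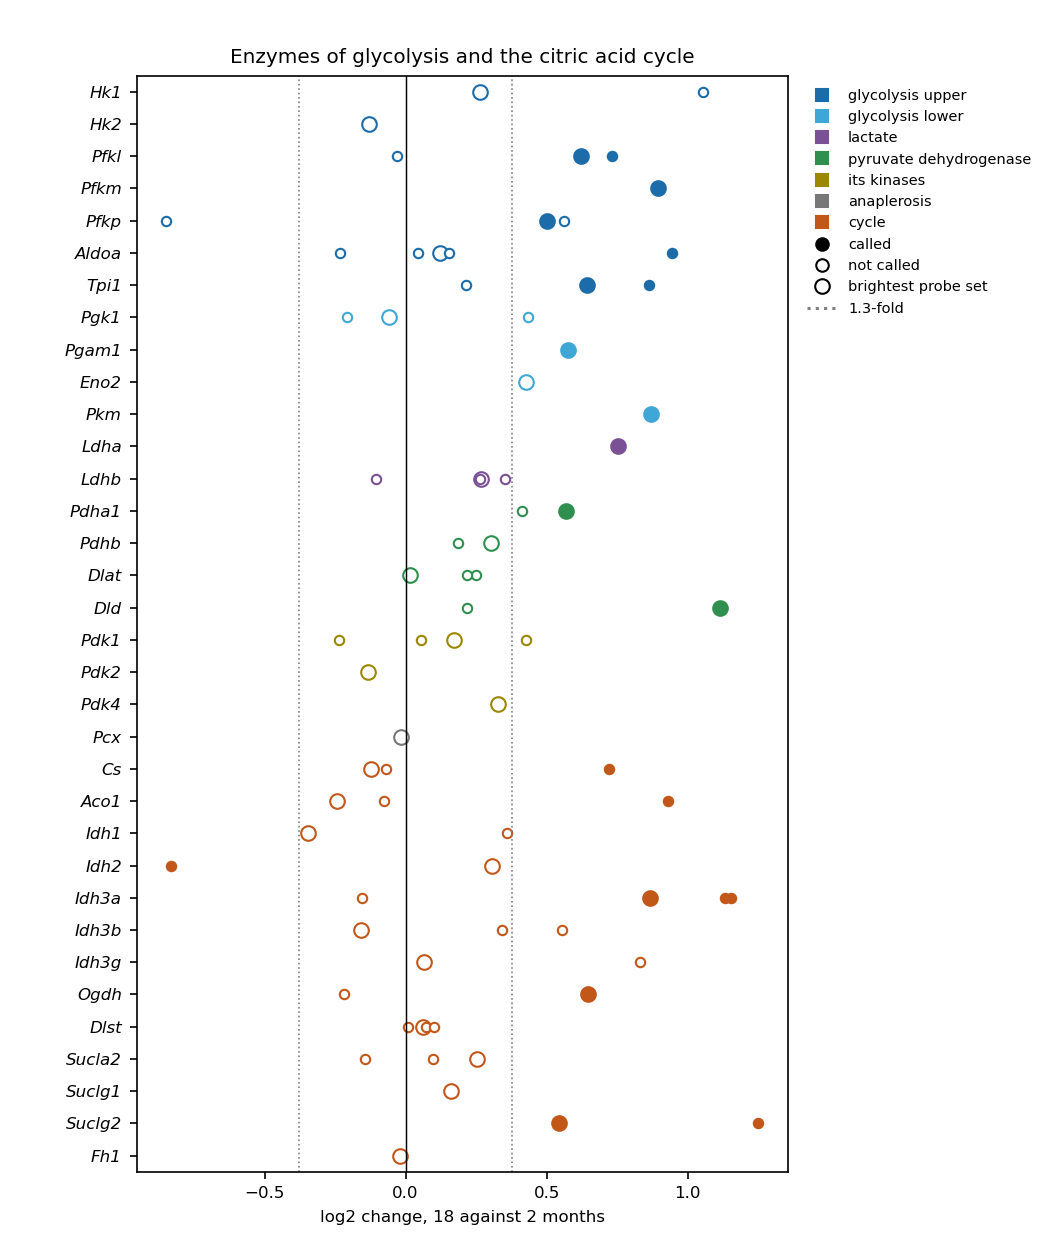
Log2 change at 18 against 2 months for each of the 77 probe sets, with genes in pathway order, colours for the step, larger circles for the brightest probe set and filled circles for called ones. The 21 filled circles lie between −0.83 and 1.25, and several genes hold both a filled circle to the right and an open one to the left of 0.

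In glycolysis 9 of 24 probe sets rose (37.5%), and 6 of 11 genes at their brightest probe set (54.5%). Of all probe sets 4.55% rose, and of all genes 5.76%. The median change of these 11 genes was 0.50, beside −0.02 over all genes. The upper part of glycolysis carries glucose to the triose phosphates. Hexokinase adds the first phosphate to glucose, and neither of its genes was called. The brightest probe set of Hk1, the main form in brain, changed by 0.26 ± 0.31 (SE, limma adjusted p = 0.656), and a weaker one by 1.05 ± 0.30 (adjusted p = 0.0549). Hk2 changed by −0.13 ± 0.20 (adjusted p = 0.756).

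Phosphofructokinase, the main control point of glycolysis, is a tetramer built from 3 kinds of subunit, and all of them rose. Pfkm, the muscle-type subunit, was at 11.73, 11.87 and 12.35 in the young samples, at 12.91, 12.49, 12.92 and 12.78 at 10 months, and at 12.69, 12.87, 12.96 and 12.99 at 18 months. Every later sample lay above every young one, and the 10 and 18 months samples overlapped. The change at 18 months was 0.89 ± 0.16 (SE, limma adjusted p = 0.0103), a 1.86-fold rise.

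Pfkl, the liver-type subunit, was at 10.64, 10.48 and 10.79 at 2 months, 11.05, 11.18, 11.41 and 11.32 at 10 months, and 10.96, 11.42, 11.26 and 11.38 at 18 months. Again no later sample reached down to the young ones. Its brightest probe set rose by 0.62 ± 0.14 (adjusted p = 0.0227) and the next by 0.73 ± 0.20 (adjusted p = 0.0497), while a dim one changed by −0.03. For Pfkp, the platelet-type subunit, the values were 11.37, 11.67 and 11.85 at 2 months, 12.11, 11.98, 12.03 and 11.94 at 10 months, and 12.22, 12.02, 12.10 and 12.19 at 18 months. This probe set rose by 0.50 ± 0.12 (adjusted p = 0.0291) with no overlap. Dimmer Pfkp probe sets changed by 0.56 ± 0.47 and −0.85 ± 0.38 and were not called.

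Aldolase A, which cleaves fructose 1,6-bisphosphate, is a gene whose probe sets disagreed. One of the 5 rose by 0.94 ± 0.14 (adjusted p = 0.00593), from 11.75, 12.25 and 12.30 at 2 months to 13.08, 12.84, 13.12 and 12.85 at 10 months and 13.08, 13.02, 13.13 and 12.94 at 18 months. Every young sample lay below every later one there. The other 4, 3 of which are brighter, changed by −0.23 to 0.15 and were not called.

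Triosephosphate isomerase (Tpi1) interconverts the triose phosphates. Its brightest probe set was at 12.28, 12.97 and 12.92 at 2 months, 13.48, 13.33, 13.34 and 13.41 at 10 months, and 13.24, 13.36, 13.44 and 13.44 at 18 months. Young array 1 was the lowest by far, and no later sample overlapped with the young ones. This probe set rose by 0.64 ± 0.15 (adjusted p = 0.029) and a further one by 0.86 ± 0.16 (adjusted p = 0.0115), while the third changed by 0.21 ± 0.10 (adjusted p = 0.219).

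The lower part of glycolysis yields ATP and pyruvate. Pgk1, the first ATP-forming enzyme of the pathway, had 0 of 3 probe sets called, with changes of −0.06, 0.43 and −0.21. Pgam1, which moves the phosphate within phosphoglycerate, was at 11.995, 12.30 and 12.42 at 2 months, 12.75, 12.55, 12.69 and 12.73 at 10 months, and 12.82, 12.75, 12.84 and 12.85 at 18 months. The late samples were close together, above all young ones, and the rise was 0.57 ± 0.11 (adjusted p = 0.0141).

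Eno2, the enolase of neurons, was at 11.75, 12.33 and 11.69 at 2 months, 11.999, 11.41, 12.93 and 11.75 at 10 months, and 11.77, 12.66, 12.19 and 12.78 at 18 months. At each age the arrays on one side of the first component were the highest, the ages overlapped, and the change of 0.43 ± 0.34 was not called (adjusted p = 0.496). Pkm, the pyruvate kinase of brain and muscle, was at 11.81, 11.57 and 12.30 at 2 months, 12.81, 12.45, 12.67 and 12.61 at 10 months, and 12.81, 12.21, 12.71 and 13.30 at 18 months. It rose by 0.87 ± 0.23 (adjusted p = 0.044), though 18 months array 2 lay within the young range.

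Lactate dehydrogenase converts pyruvate and lactate into each other, with Ldha encoding the form abundant in muscle and Ldhb that of heart. Ldha was at 11.16, 11.58 and 11.62 at 2 months, 12.06, 11.83, 11.75 and 11.95 at 10 months, and 12.30, 12.12, 12.15 and 12.25 at 18 months. The 3 ages formed 3 separate ranges in age order, and the rise was 0.75 ± 0.13 (limma adjusted p = 0.00854), or 1.69-fold. The step from 10 to 18 months was not called (limma adjusted p = 0.847), and 1.11% of all probe sets were higher without overlap between these ages. The 4 probe sets of Ldhb changed by −0.11 to 0.35 and none was called. The within-array difference Ldha minus Ldhb shifted from −2.20 ± 0.24 (SD, n = 3) to −1.72 ± 0.16 (SD, n = 4), by 0.49 on the log2 scale (two-sided exact permutation p = 0.0286, the smallest possible, adjusted p = 0.171 over 12 tests of isozyme pairs). At that smallest p a pair could not pass on its own over 12 tests. The adjusted test therefore could not decide whether these isozymes changed unequally.

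**Figure D2:**
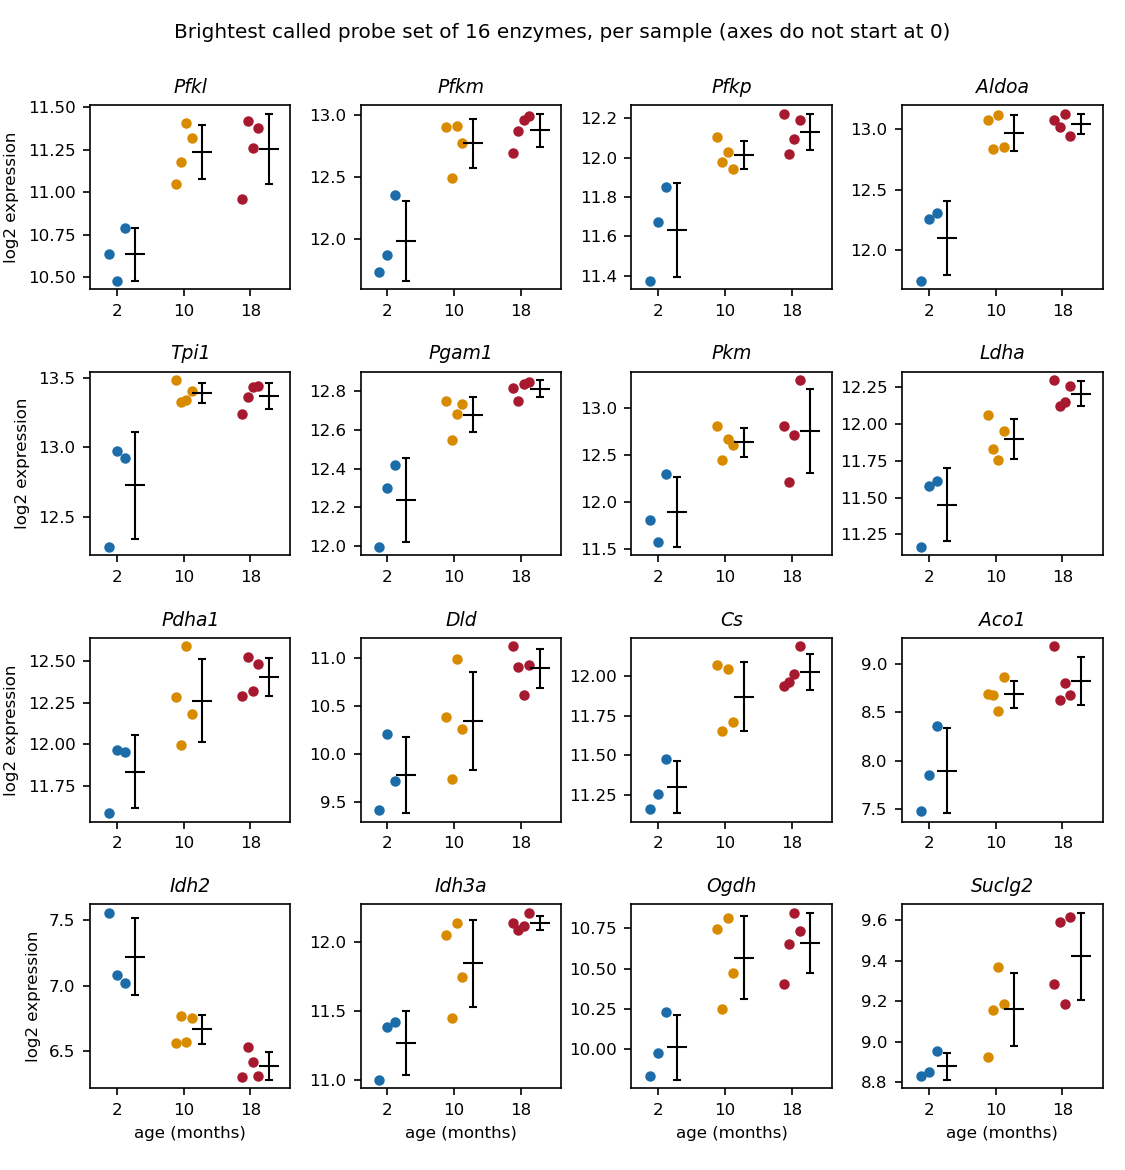
Log2 expression per sample at 2, 10 and 18 months (n = 3, 4 and 4) for the 16 genes with a called probe set, each at its brightest called one; points are samples and bars the mean and SD. Aside from Idh2, which fell from 7.22 to 6.39, the late samples sit higher than the young ones, and only in Pkm does a late sample lie within the young range.

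Pyruvate dehydrogenase links glycolysis to the cycle. Pdha1, the catalytic E1 alpha subunit, was at 11.58, 11.97 and 11.95 at 2 months, 12.28, 11.99, 12.59 and 12.18 at 10 months, and 12.29, 12.52, 12.32 and 12.48 at 18 months. All later samples were above the young ones, 1 of them only narrowly, and the rise was 0.57 ± 0.15 (adjusted p = 0.042). Dld, the E3 subunit that this complex shares with oxoglutarate dehydrogenase, was at 9.41, 10.20 and 9.72 at 2 months, 10.39, 9.74, 10.99 and 10.25 at 10 months, and 11.12, 10.90, 10.62 and 10.92 at 18 months. Its rise of 1.11 ± 0.26 (adjusted p = 0.0279), 2.16-fold, was the largest among the members' brightest probe sets, with the 10 months samples spread across both other ranges.

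The other subunits were not called. Pdhb, the E1 beta subunit, changed by 0.30 ± 0.15 and Dlat, the E2 subunit, by 0.01 ± 0.11 at their brightest probe sets. The kinases that switch the complex off had 0 of 6 probe sets called by limma (1 at an unadjusted p under 0.05). With 7.46% of all probe sets called, 0 of so few is no unusual count. Their brightest probe sets changed by 0.17 for Pdk1, −0.13 for Pdk2 and 0.33 for Pdk4. Pdk2 was at 6.52 in 10 months array 3 and 6.42 in 18 months array 2, and between 6.87 and 7.58 in every other sample.

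Pcx, pyruvate carboxylase, refills the cycle with oxaloacetate and in brain is known from astrocytes. Its tested probe set was at 9.71, 9.80 and 10.25 at 2 months, 10.13, 10.15, 9.71 and 10.24 at 10 months, and 10.20, 9.60, 10.14 and 9.67 at 18 months. The ages overlapped, and the change was −0.02 ± 0.19 (adjusted p = 0.972). The array also carries 4 control probe sets of Pcx, named 5′, middle A, middle B and 3′, which give a view of position within a member gene.

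The 3′ control of Pcx had means of 9.81, 10.0 and 9.90 in age order (SD 0.25, 0.21 and 0.32, n = 3, 4 and 4). The 5′ control was at 6.55, 6.51 and 6.37 and the middle A control at 6.60, 6.55 and 6.51. The middle B control had the largest difference between ages of the 4, with means of 5.59, 6.43 and 6.43 (SD 0.30, 0.52 and 0.49, n = 3, 4 and 4), higher by 0.84 at each later age, with overlap at 18 months (two-sided exact permutation p = 0.0571 at 10 months and 0.0857 at 18 months). None of the differences between ages in the Pcx controls passed after adjustment over the 21 tests. A single comparison could not have passed there, since the smallest possible exact p was 0.0286.

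**Figure D3:**
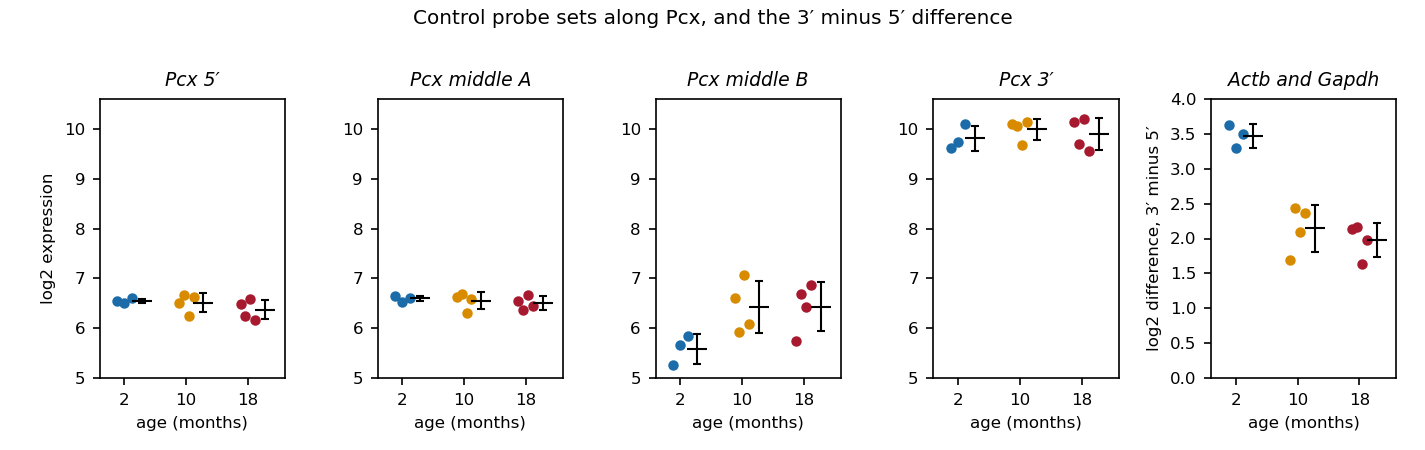
Log2 expression of the 4 control probe sets of Pcx and, at the right, the 3′ minus 5′ log2 difference of Actb and Gapdh, by age; points are samples, bars the mean and SD. The 5′, middle A and 3′ controls of Pcx overlap between ages, the middle B one is lowest at 2 months (5.59), and the Actb and Gapdh difference separates the young samples (3.29 to 3.63) from the later ones.

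In the citric acid cycle 8 of 32 probe sets rose and 1 fell (28.1% called), and 3 of 13 genes rose at their brightest probe set (23.1%). Of all probe sets 7.46% were called, and of all genes 8.82%. The median change of these 13 genes was 0.06, beside −0.02 over all genes. Citrate synthase (Cs), which opens the cycle, rose by 0.72 ± 0.13 (adjusted p = 0.0117) in a probe set at 11.16, 11.26 and 11.48 at 2 months, 12.07, 11.65, 12.04 and 11.71 at 10 months, and 11.93, 11.96, 12.01 and 12.18 at 18 months. No later sample overlapped with the young ones there, but the brightest probe set of Cs changed by −0.12 ± 0.12 and a dim one by −0.07. Aco1, the cytosolic aconitase that also acts as an iron-regulatory protein, behaved likewise. A probe set at 7.48, 7.85 and 8.36 at 2 months, 8.69, 8.68, 8.51 and 8.87 at 10 months, and 9.19, 8.63, 8.81 and 8.68 at 18 months rose by 0.93 ± 0.20 (adjusted p = 0.0187), while the brightest changed by −0.24 ± 0.15.

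Isocitrate dehydrogenase exists in an NAD-dependent form of the cycle, built from the products of Idh3a, Idh3b and Idh3g, and in NADP-dependent forms from Idh1 in the cytosol and Idh2 in mitochondria. Idh3a, the catalytic subunit, was at 11.004, 11.38 and 11.42 at 2 months, 12.05, 11.45, 12.14 and 11.74 at 10 months, and 12.14, 12.09, 12.11 and 12.21 at 18 months in its brightest probe set. The late samples lay close together and all above the young ones, and the 10 months samples ran from just above the young ones into the late range. This probe set rose by 0.87 ± 0.16 (adjusted p = 0.0124), and others of the gene by 1.13 ± 0.23 and 1.15 ± 0.25 (adjusted p = 0.0167 and 0.0216), while the other changed by −0.16.

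The other subunits were not called. Idh3b changed by −0.16, 0.34 and 0.56 in its 3 probe sets. Idh3g changed by 0.06 ± 0.32 and 0.83 ± 0.26 (adjusted p = 0.0783). The brightest probe set of Idh3g was at 11.86, 11.60 and 12.33 at 2 months, 12.38, 12.58, 11.35 and 12.48 at 10 months, and 12.48, 11.59, 12.32 and 11.59 at 18 months. Its lowest values came from the arrays on one side of the first component, the reverse of Eno2.

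Idh2 gave the only fall among the members. A dim probe set at 7.56, 7.08 and 7.02 at 2 months, 6.57, 6.77, 6.57 and 6.76 at 10 months, and 6.30, 6.53, 6.42 and 6.31 at 18 months fell by 0.83 on the log2 scale (SE 0.14, adjusted p = 0.0076). The ages formed separate ranges in descending order. Between 10 and 18 months the change was not called (limma adjusted p = 0.847), and 1.62% of all probe sets were lower without overlap. The brightest Idh2 probe set, at a mean of 9.49, changed by 0.30 ± 0.18 the other way and was not called. Idh1 changed by −0.35 ± 0.15 and 0.36 ± 0.44.

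Ogdh, the E1 subunit of oxoglutarate dehydrogenase, was at 9.83, 9.97 and 10.23 at 2 months, 10.74, 10.25, 10.81 and 10.47 at 10 months, and 10.40, 10.66, 10.84 and 10.74 at 18 months. It rose by 0.65 ± 0.16 (adjusted p = 0.0341) with no overlap, while a dimmer probe set changed by −0.22 ± 0.39. Dlst, the E2 subunit of the same complex, had 0 of 4 probe sets called, with changes of 0.01 to 0.10.

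Succinyl-CoA synthetase pairs the alpha subunit Suclg1 with the ATP-specific Sucla2 or the GTP-specific Suclg2. Suclg2 was the one member with several probe sets of which all were called. The brighter was at 8.83, 8.85 and 8.95 at 2 months, 8.93, 9.16, 9.37 and 9.19 at 10 months, and 9.29, 9.59, 9.19 and 9.62 at 18 months, a rise of 0.54 ± 0.14 (adjusted p = 0.0362). The dimmer rose by 1.25 ± 0.30 (adjusted p = 0.0303), from a mean of 5.81 to 7.06, the largest change among the members.

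Sucla2 changed by 0.25 ± 0.17 and Suclg1 by 0.16 ± 0.13 at their brightest probe sets, and neither was called. The difference Sucla2 minus Suclg2 shifted by −0.29 between 2 and 18 months (two-sided exact permutation p = 0.0286, adjusted p = 0.171 over 12 tests). Fumarase (Fh1) was at 11.9 on average at each age and changed by −0.02 ± 0.16. The 12 tests of isozyme pairs covered Ldha with Ldhb, Hk1 with Hk2, Pfkm with Pfkp, Pfkl with Pfkm, Pdk2 with Pdk4, and Sucla2 with Suclg2. None passed after adjustment, but with 0.0286 as the smallest possible p a pair could not pass on its own. Equal change is not shown by this.

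Agreement between probe sets of 1 gene was limited. Of the 16 genes with a called probe set, 12 had more than 1 probe set, and in 8 of these a further probe set changed in the opposite direction. None of these opposite changes was called (limma adjusted p of 0.207 or more). Of all tested probe sets 40.4% changed above 0, so a sign alone is common in either direction. Every probe set was called in 1 of the 12. Of the 11 genes measured by 1 probe set, 4 were called (Pfkm, Pgam1, Pkm and Ldha), beside 8.82% of all genes at their brightest probe set. By the suffix of the probe set name, 18 of the 77 may bind related sequences (suffix s or x). Of these 4 were called, beside 7.46% of all probe sets with any suffix.

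**Figure D4:**
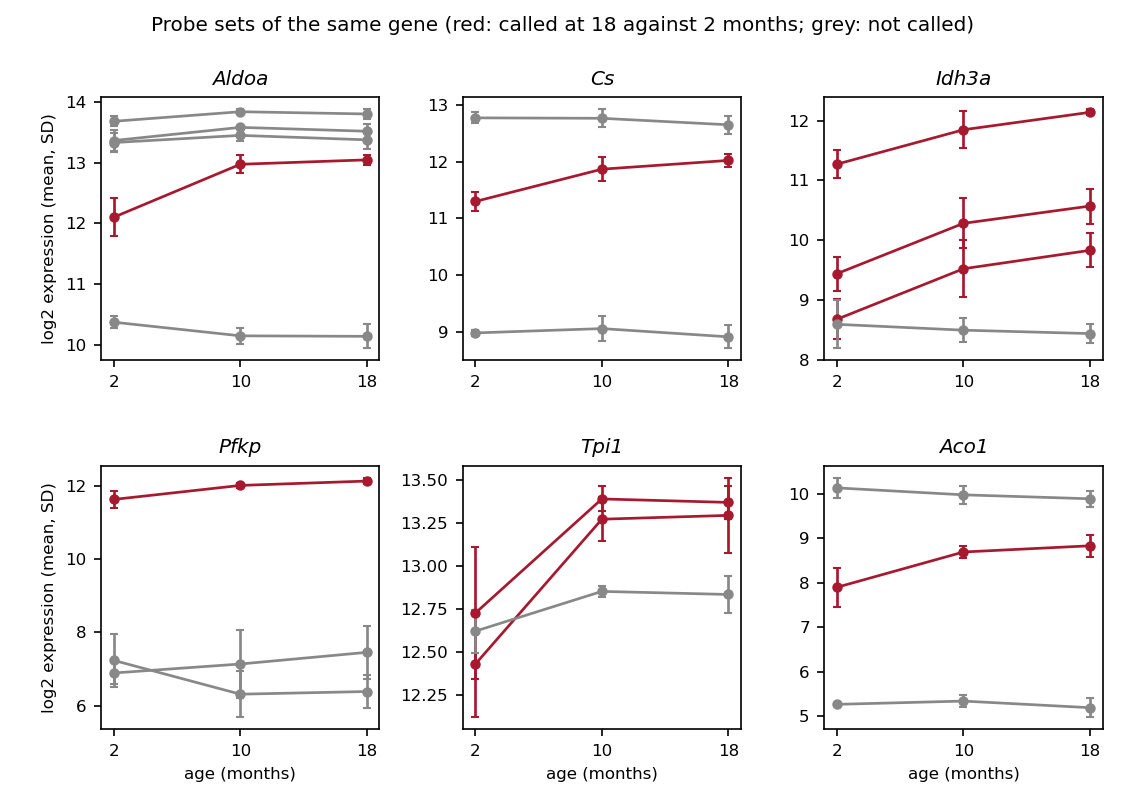
Mean log2 expression with SD at 2, 10 and 18 months (n = 3, 4 and 4) for every probe set of 6 genes; red lines are called at 18 against 2 months. In Aldoa, Cs and Aco1 the rising probe set lies below a brighter one that was not called, while in Idh3a 3 and in Tpi1 2 probe sets rise.

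At 10 against 2 months, 3 of 77 member probe sets rose and 0 fell (3.9%), where 1.36% of all were called. These were Pfkm, by 0.79 ± 0.16 (adjusted p = 0.0461), the Aldoa probe set described above, by 0.87 ± 0.14 (adjusted p = 0.0307), and the second Tpi1 probe set, by 0.84 ± 0.16 (adjusted p = 0.0399). All 3 belong to the upper part of glycolysis. By brightest probe set it was 1 of 34 genes, where 1.48% of all genes were called. The median change was 0.17 over the members and −0.01 over all, and 52 of 77 changes were above 0, beside 48.4%. The ages did not overlap in 19 member probe sets that were higher and 3 that were lower at 10 months, beside 6.35% and 6.25% of all. The 3 calls were lost when any 1 of young array 1, young array 2, 10 months array 1, 10 months array 4, 18 months array 2 or 18 months array 4 was left out, and 1 was left without 18 months array 3. In the fits with 0 member calls, 0.00222% to 0.198% of all probe sets were called, beside 1.36% in the main fit. There were 6 member calls without 10 months array 2 and 9 without young arrays 3 and 4 (1.41% and 2.83% of all probe sets).

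At 18 against 10 months limma called 0 of 77 (5 at an unadjusted p under 0.05), where 0.00222% of all probe sets were called. The median change was 0.07 for the members and −0.03 for all, and 53 of 77 changes were above 0, beside 41.5%. The ages did not overlap in 1 probe set that was higher and 1 that was lower, beside 1.11% and 1.62% of all (2.73% together). For the 20 probe sets that rose between 2 and 18 months, the change from 2 to 10 months ran from 0.28 to 0.87 with a median of 0.61. The change from 10 to 18 months in the same probe sets ran from −0.02 to 0.56 with a median of 0.14. Since these 20 were picked by the 18 against 2 months comparison and the comparisons share samples, these are descriptions. Whether the intervals were unequal was tested directly, and limma called 0 member probe sets (smallest adjusted p = 0.898, 5 at an unadjusted p under 0.05) and 0 of all.

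Within an age the arrays also differed in a shared way. Over the 77 probe sets, 10 months array 3 was the highest of its age in 38 and the lowest in 24. At 18 months, arrays 2 and 4 were both above arrays 1 and 3 in 32 probe sets and both below in 9. These counts were not taken over all probe sets, so whether they are particular to the enzymes was not tested.

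Further genes of the pathway were read from a list of 50, of which 43 had a named probe set. At their brightest probe sets 6 rose and 1 fell at 18 against 2 months, together 7 of 43, beside 8.82% of all genes called and 5.76% that rose. The median change of the 43 was 0.10, beside −0.02 over all genes. Sdhd, an anchor subunit of succinate dehydrogenase, rose by 0.91 ± 0.14 (adjusted p = 0.00656) and Mpc1, part of the carrier that brings pyruvate into mitochondria, by 1.09 ± 0.28 (adjusted p = 0.0389). Pfkfb2, which makes the activator fructose 2,6-bisphosphate, rose by 0.83, the pyruvate dehydrogenase kinase Pdk3 by 0.64, the monocarboxylate carrier Slc16a7 by 0.61 and the mitochondrial malic enzyme Me3 by 0.49. Acly, which cleaves citrate for lipid synthesis, fell by 0.50. Without young array 1, young array 2 or 18 months array 1, 1 of the 7 was called, and without 10 months array 1 or 4 or 18 months array 2, 3 or 4 it was 2 to 4. Only Sdhd was called at 10 months (0.74 ± 0.14, adjusted p = 0.0408).

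Markers of several cell types moved with age beside these enzymes. They are counted at their brightest probe sets, where 8.82% of all genes were called and 5.76% rose. Of 7 neuronal markers, 3 rose and 1 fell at 18 months, and the mean level of the list was 11.75 to 12.08 in the young samples, then 12.37 to 12.49. Over all 15 neuronal probe sets, however, 3 rose and 3 fell. Dimmer probe sets of Snap25 and Syt1, whose brightest ones rose, fell with log2 changes of −0.96 and −0.99. Eno2 is on this list. For 8 astrocyte markers 1 rose, and the list lay at 11.43 to 11.54 and then at 11.67 to 11.96. For 8 microglial markers 3 rose (8.99 to 9.30, then 9.49 to 9.81), and for 7 of oligodendrocytes 2 rose (12.20 to 12.30, then 12.40 to 12.50). Of 10 dopaminergic markers 1 rose and 2 fell (11.31 to 11.47, then 11.45 to 11.58). Over their 16 probe sets 1 rose and 4 fell, including dimmer ones of Nr4a2 with changes of −1.06 and −0.74. Markers of choroid plexus (1 of 6 rose), vessels (1 of 8 fell), blood (0 of 3 called by limma) and pituitary (0 of 4 called by limma) lay in overlapping ranges at 2 and 18 months. The part of these shifts in the enzyme results was not tested.

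The DNA before the transcription starts of the members was also read. The motif searched was ACGTG on either strand (CACGT in reverse), the core of the hypoxia response element bound by hypoxia-inducible factors and shared with the E-box CACGTG. RefSeq promoter sequences (GRCm38.p6) were found for 35 of the 36 members. In the 250 bases before the start the motif was present for 12 of 35 genes (34.3%), beside 18.5% of 27025 genes. By starts, the figures were 35.2% of 54 and 16.6% of 32851. The E-box was present for 5 of 35 members (14.3%, beside 6.86%) and the GC box GGGCGG for 22 (62.9%, beside 35.4%). The genes with ACGTG were Pfkm, Aldoa, Pgam1, Pkm, Ldha and Ogdh, which had a called probe set, and Hk2, Pgk1, Pdhb, Pdk2, Pcx and Idh3g, which had none. Of the 34 measured members 16 had a called probe set. Whether the motif goes with the rise was not tested. A match is a feature of the sequence, and nothing at these promoters was measured here.

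The windows shown are those of the genes called at both later ages, each at the start with the most matches, and that of Ldha, which held the most matches of all members (5, in 2 E-boxes and a further site). They are Pfkm at chr15:98092339-98092588 (plus strand), Aldoa at chr7:126799255-126799504 (minus strand), Tpi1 at chr6:124814159-124814408 (minus strand) and Ldha at chr7:46845554-46845803 (plus strand). Capitals mark ACGTG or CACGT, and each window is written 5′ to 3′ on the strand of the gene, ending just before the start. Tpi1, called at both ages, has no match in its window.
Pfkm: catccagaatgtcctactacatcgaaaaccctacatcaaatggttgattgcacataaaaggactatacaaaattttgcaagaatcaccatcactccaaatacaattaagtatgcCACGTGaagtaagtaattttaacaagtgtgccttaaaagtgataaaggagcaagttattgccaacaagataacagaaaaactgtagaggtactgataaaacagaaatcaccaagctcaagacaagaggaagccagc
Aldoa: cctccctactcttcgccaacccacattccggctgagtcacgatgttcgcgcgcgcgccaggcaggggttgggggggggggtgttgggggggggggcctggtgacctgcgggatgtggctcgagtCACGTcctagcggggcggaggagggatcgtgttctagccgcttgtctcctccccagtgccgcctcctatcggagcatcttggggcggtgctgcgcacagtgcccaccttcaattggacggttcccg
Tpi1: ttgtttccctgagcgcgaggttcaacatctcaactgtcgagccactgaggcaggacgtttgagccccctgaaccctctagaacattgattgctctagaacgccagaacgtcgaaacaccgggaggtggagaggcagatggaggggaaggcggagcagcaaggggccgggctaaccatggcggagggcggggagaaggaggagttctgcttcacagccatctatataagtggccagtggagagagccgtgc
Ldha: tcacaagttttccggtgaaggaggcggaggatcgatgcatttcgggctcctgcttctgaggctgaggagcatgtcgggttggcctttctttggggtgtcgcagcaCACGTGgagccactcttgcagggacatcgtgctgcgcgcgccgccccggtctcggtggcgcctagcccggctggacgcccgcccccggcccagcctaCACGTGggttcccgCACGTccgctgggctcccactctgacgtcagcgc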

How the data were processed

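VTA RNA was isolated on micro columns, labelled with biotin over successive rounds of amplification and hybridised to Affymetrix mouse arrays, 12 in all and 4 per age. The authors deposited RMA-normalised log2 values, 1 for each probe set and array, between 2.40 and 14.7. Besides RMA, limma 3.4.5 is named in the submitters' processing notes. Arrays have no read depth, and their number limits the precision. Groups and replicate numbers come from the sample titles. Since every array is a pool of mice, tests measure the spread of pools.

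Probe sets were named through the platform annotation (34945 with 1 gene, 932 with several, 9160 with none), and all 34 measured members matched the RefSeq gene table by gene number with no change of symbol. The 64 control probe sets were left out and 45037 tested. All ages were fitted in limma 3.58.1 (R 4.3.3; lmFit, contrasts.fit, eBayes) with a mean per age, no covariate, and Benjamini-Hochberg adjustment over all tested probe sets. Young arrays 3 and 4 differed by more than 1 in 1 probe set, against 100 to 4914 in other pairs, less than the noise between other replicates, and were averaged. The fit was tested on simulated data.

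The members, lists and tests were chosen with earlier results of these data known. Every member is named, and one with a called probe set is given with its values per sample. The brightest probe set (highest mean over all arrays) stands for a gene in counts of genes. Isozyme differences and control probe sets were compared by two-sided exact permutation tests over samples, adjusted within each family. Poly-A and hybridisation controls are means over their probe sets.

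Alternatives were 12 separate arrays, the replicate number as a block, median centring, a filter on low values, a covariate for the 3′ minus 5′ difference, only the ages compared, an intensity trend and leaving out each replicate. Leaving out the arrays on one side of the first component was chosen after seeing the data.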

Additional observations from a re-analysis of the deposited data

Results flagged for a closer look

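In 11 of 180 groups of 4 arrays (6.11%), 1 array lay far from the others by Dixon's test for outliers, which chance does in about 1 in 20 groups. The members flagged at 10 months were Pdk2 (lowest array 6.52, the next at 7.53), both probe sets of Idh3g (lowest arrays 11.4 and 11.3, the next at 12.4 and 12.04), a Dlst probe set (lowest 6.71) and a dim Pfkl probe set (highest 5.52). In Pdk2 and Idh3g the array that stood apart was array 3, which also stood apart on the first component. At 18 months they were Hk1 (highest array 12.2, the next at 10.8), an Aldoa probe set that was not called (lowest 13.2) and the second Tpi1 probe set (lowest 12.97, the next at 13.4). Among the isozyme differences, an array stood apart in Ldha minus Ldhb at 10 months (lowest −2.37), in Pfkm minus Pfkp at 18 months (lowest 0.47) and in Pdk2 minus Pdk4 at 18 months (lowest −1.60).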

How the results depend on the processing

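The 21 member probe sets called at 18 against 2 months became 19 to 23 with 12 separate arrays, the replicate block, median centring, a filter on low values, only the ages compared or an intensity trend, and 3 to 23 without single replicates (genes 1 to 12). With the 3′ minus 5′ covariate 0 members, 0 genes, 0 other enzymes and 0 of all probe sets were called at 18 months and 0 members at 10 months. The covariate separates young from later samples, and the median SE of the members rose from 0.15 to 0.40. Ogdh then reversed to −0.20 ± 0.37. Without single replicates the called share over all probe sets at 18 against 2 months ran from 0.939% to 11.8%. Without the arrays on one side of the first component, chosen after seeing the data, 11 probe sets and 5 genes were called at 18 months and 0 at 10 months. Of all probe sets 7.57% and 0.00444% were then called. The 3 calls at 10 months became 5 with 12 separate arrays or median centring, 0 with only the ages compared, 0 to 6 without single replicates, and 9 without both young arrays 3 and 4. The 7 other enzymes ranged from 1 to 8 without single replicates.

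Replicate numbers did not pair the arrays: same-numbered arrays had correlations of −0.61 to 0.43 between their deviations from the age means, and 0 of 12 arrays correlated best with its own number. With the replicate block, 19 members were called at 18 months and 0 at 10 months, and 2 other enzymes. The median changes of the member probe sets kept their sign and moved by less than the spread between samples. Over all probe sets the median at 18 against 2 months changed sign. It went from −0.06 to 0.004 with median centring and to 0.036 with the 3′ minus 5′ covariate. Of 24 named changes in probe sets, all kept their sign when single replicates were left out.

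Some small differences that were not significant changed sign. Hk1 minus Hk2 at 10 months was −0.064 with 12 separate arrays. Without single replicates its change ran from −0.12 to 0.17 at 10 and from −0.11 to 0.64 at 18 months. At 18 against 10 months the hybridisation controls ran from −0.46 to 0.11, and the Pcx controls from −0.20 to 0.021 (3′), −0.13 to 0.0046 (middle A) and −0.16 to 0.23 (middle B). The Pcx 3′ control ran from −0.014 to 0.20 at 18 against 2 months, and the middle A and 5′ controls from −0.095 to 0.037 and −0.085 to 0.054 at 10 against 2 months. The cause of these changes was not tested.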

Other observations

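The added poly-A control RNAs, as the mean log2 level of their probe sets, had means of 6.06, 6.38 and 6.90 in age order (SD 0.09, 0.09 and 0.33, n = 3, 4 and 4). The 3 ages did not overlap (two-sided exact permutation p = 0.0286 for every comparison of ages, adjusted p = 0.12 over 21 tests). The hybridisation controls had means of 11.6, 11.02 and 10.9 (SD 0.35, 0.81 and 0.31), with overlap. Among further genes of the pathway, probe sets other than the brightest rose for Slc2a1, the glucose transporter of vessels and astrocytes (1.02 ± 0.26, limma adjusted p = 0.0347), for the pyruvate dehydrogenase phosphatase Pdp1 (0.76 ± 0.17, adjusted p = 0.0246) and for the cytosolic malic enzyme Me1 (1.13 ± 0.20, adjusted p = 0.0101). The brightest probe sets of these genes changed by −0.41, 0.39 and 0.22 and were not called. Over all 89 probe sets of the further genes 9 rose and 1 fell, where 4.55% of all probe sets rose and 2.91% fell.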
